A study of Rattus norvegicus with 9 samples.

Results

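The comparison of reoxygenated with unstressed rat cardiomyocytes rested on 6 of the 9 libraries of the series, chosen by their titles: 3 of normoxia and 3 of hypoxia and reoxygenation with DMSO (H/R-DMSO). Cardiomyocytes are the contracting muscle cells of the heart, and the cultures, labelled NRCM, came from heart tissue. The H/R-DMSO cells spent 6 h at 0.1% oxygen without glucose or sodium pyruvate, were returned for 12 h to 21% oxygen and standard medium, and received the solvent DMSO at the return. The labels give no H/R step for the normoxia cells and do not say whether these had the solvent, so low oxygen, loss of nutrients, reoxygenation and DMSO cannot be told apart here. No genotype change is described for either group. The strain of the rats is not given, nor their age beyond what the label NRCM carries. The number of separate cultures is not given either, so the p-values measure the spread between these libraries, which may be technical. The remaining 3 libraries, of cells given 0.5 µM AS8351, were not compared. They entered the filter on low counts, the scaling and the estimate of the spread.

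Oxygen loss stops mitochondrial ATP production in heart muscle, which relies on it for contraction, and the return of oxygen brings a burst of reactive oxygen species and calcium overload. Hypoxia and reoxygenation in culture is used as a model of a heart that loses and regains its blood flow. Heart muscle cells are known for an RNA pool in which a small number of genes, among them genes of contractile and mitochondrial proteins, supply a large part of the molecules.

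The files identify genes by Ensembl ID only. None could be given a symbol, since the rat gene table at hand lists an Ensembl ID for 0 of its 47357 genes. Kdm5b and Brinp2 of the series title, the markers that would test the labelled cell type, and the gene lists of processes were therefore not analysed here. The change is described by abundance class, by the number of genes that carry it, and for 4 genes by ID. The classes use the mean of the 6 libraries in CPM, the counts brought to a common library size by TMM scaling, a method that sets the bulk of the genes to no change. In bulk RNA, fewer cells of a type and less RNA per cell cannot be told apart, and a CPM value is relative to the other RNA of the library.

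The 6 libraries held between 34442733 and 54888975 counts. H/R-DMSO replicate 1 stood apart from the other two. A pair of libraries was compared by the percentage of counts that would have to move between genes to make their compositions equal. This was 3.54% and 3.10% for replicate 1 against replicates 2 and 3, and 1.87% between those. The 3 normoxia pairs lay between 1.65% and 1.85%. All 9 pairs of a normoxia with an H/R-DMSO library lay between 12.1% and 13.1%, above every pair within a group.

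After H/R, 4361 genes were higher (27.5% of the 15879 genes tested) and 4003 were lower (25.2%), or 52.7% in all at an adjusted p below 0.05 in edgeR's quasi-likelihood test. Such genes are called below. Which direction led rested on the setting: lower genes led with RLE scaling (4054 higher, 4203 lower), with DESeq2 (3989 and 4168) and in a fit of the 2 groups alone (3856 and 4270). Without H/R-DMSO replicate 1, 4050 genes were higher and 3878 lower. Called changes of at least 2-fold were rarer, with 711 genes higher (4.48%) and 691 lower (4.35%). Their order also turned with RLE scaling (685 higher, 714 lower), DESeq2 (669 and 708) and the 2 groups alone (624 and 703). Without H/R-DMSO replicate 1 they were 690 and 693. Total-count scaling gave 993 higher and 531 lower at least 2-fold. For 57.5% of the genes tested, the lowest CPM of one group lay above the highest CPM of the other. If the order of the libraries were random, 3 against 3 would separate in this way at a rate of 0.1.

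The balance of higher and lower genes differed between the abundance classes. Below 1 CPM, 317 genes were higher and 191 lower, and the higher ones made up 62.4% of the calls. This order rested on the level that sets the class, as classing by the H/R-DMSO libraries alone gave 228 higher and 297 lower there. From 1 to 10 CPM, 990 were higher and 740 lower. From 10 to 100 CPM 2481 were higher and 2166 lower, an order that turned with RLE scaling (2283 and 2290), with DESeq2 (2242 and 2270) and in the fit of the 2 groups alone (2193 and 2350). From 100 to 1000 CPM the balance was turned, with 557 genes higher and 841 lower. Among the 90 genes with at least 1000 CPM, 16 were higher and 65 lower. The lower ones made up 80.2% of the calls in this class, against 47.9% over all classes.

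The percentage of genes called grew with abundance in step with the precision. It was 20.7% below 1 CPM, 48.3% from 1 to 10 CPM, 59.5% from 10 to 100 CPM, 72.2% from 100 to 1000 CPM and 90% from 1000 CPM. The median standard error of a log2 fold change went from 0.50 in the lowest class to 0.033 in the highest. A class with a higher percentage of called genes is therefore not shown to respond more. In the lowest class, 93.5% of the called genes had changed at least 2-fold, against 6.69% from 10 to 100 CPM. Smaller changes were mostly not detectable below 1 CPM, where the median gene had 16 counts per library.

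**Figure D1:**
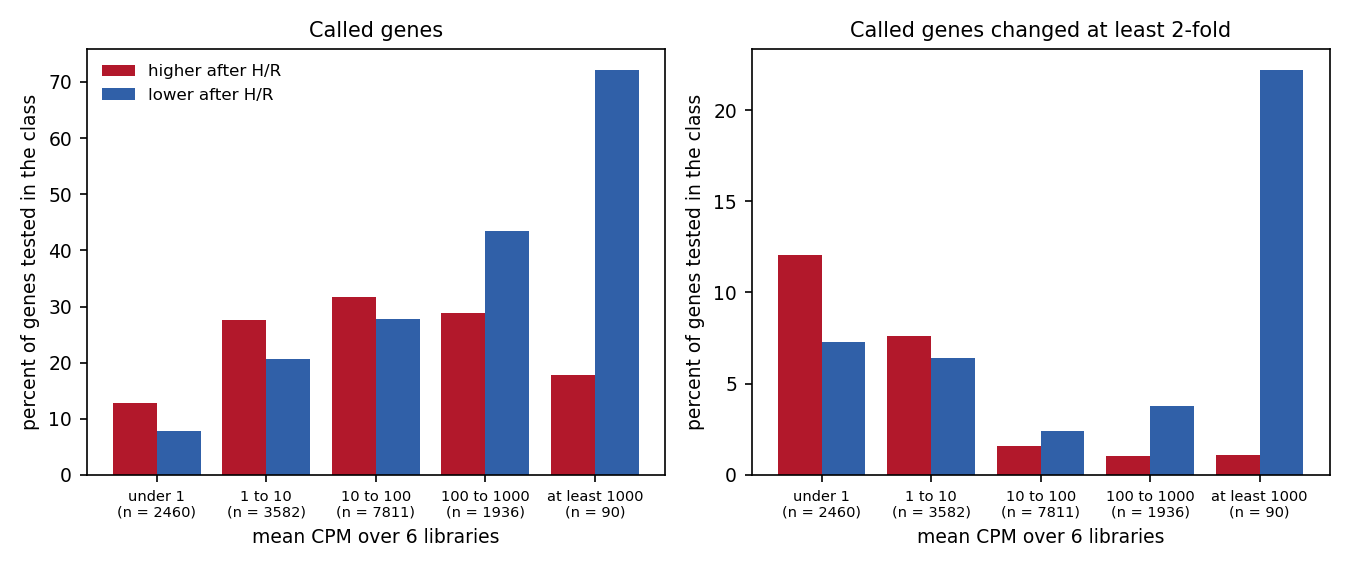
Percentage of the genes tested in each abundance class (x axis, mean CPM over 6 libraries, with the number of genes) that were called higher (red) or lower (blue) after H/R, for all calls on the left and for calls of at least 2-fold on the right. With TMM scaling over the 9 libraries, higher genes outnumbered lower ones below 100 CPM on the left. From 10 to 100 CPM this order turned with RLE scaling, with DESeq2 and in the fit of the 2 groups alone. With the same TMM scaling lower genes led from 100 CPM, with 72.2% lower and 17.8% higher in the class of at least 1000 CPM.

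For large changes lower genes led from 10 CPM upward with TMM scaling. Changes of at least 2-fold were not counted by class under other scalings, so whether this order holds there was not tested. At least 2-fold, 296 genes were higher and 179 lower below 1 CPM, and 272 were higher and 230 lower from 1 to 10 CPM. From 10 to 100 CPM there were 122 higher and 189 lower, and from 100 to 1000 CPM 20 higher and 73 lower. In the highest class 20 of 90 genes fell at least 2-fold, 3 of them at least 4-fold, and 1 rose at least 2-fold. The share of genes that fell at least 2-fold was thus 22.2% in this class, against 4.35% of all genes tested.

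With TMM scaling the class medians were small except in the highest class. The median log2 fold change was 0.16 below 1 CPM, 0.075 from 1 to 10 CPM, 0.024 from 10 to 100 CPM and -0.046 from 100 to 1000 CPM, beside 0.028 over all genes. In the class of at least 1000 CPM it was -0.40, which puts the median gene at 75.9% of its normoxia level. The value was -0.20 for the 74 genes that reach 1000 CPM by the H/R-DMSO libraries alone and -0.44 for the 99 that reach it by the normoxia libraries alone. Each H/R-DMSO library set against the normoxia mean gave -0.41, -0.36 and -0.41 for this class, a spread (SD) of 0.030. The middle 50% of the class lay between -0.90 and -0.0032. The median below 1 CPM is less secure, since the filter on low counts can keep a gene through the group where it is high. It was 0.071 with no such filter and 0.11 in the fit of the 2 groups alone. Classed by the H/R-DMSO libraries alone it was 0.041, and by the normoxia libraries alone 0.26.

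**Figure D2:**
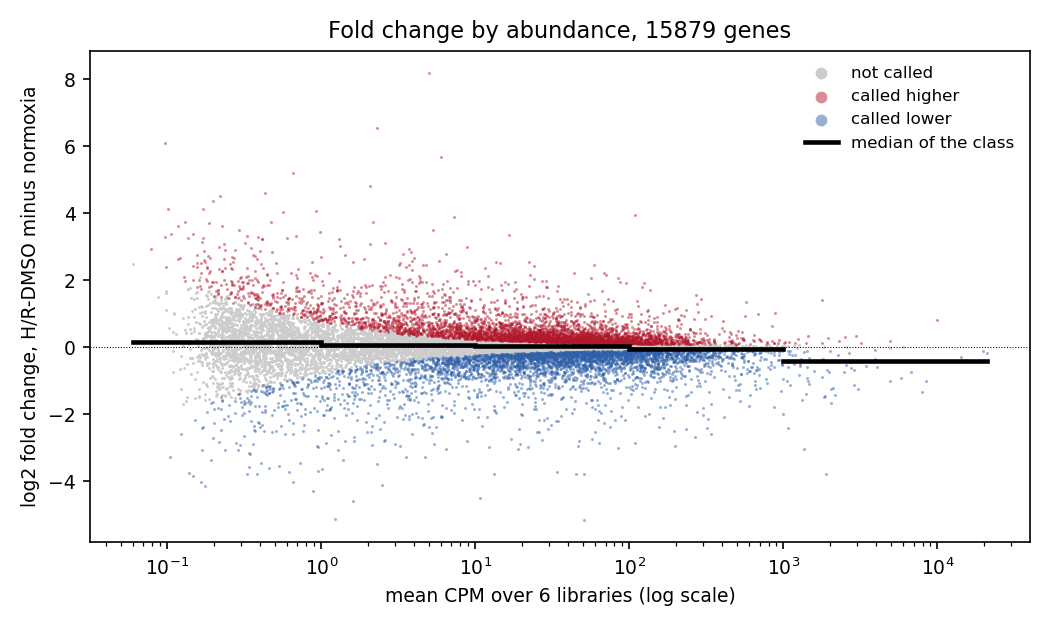
Log2 fold change of H/R-DMSO against normoxia (y axis) by mean CPM over 6 libraries (x axis, log scale), 1 point per gene, coloured by call, with the median of each abundance class as a black line. With TMM scaling the line lies near 0 in the 4 classes below 1000 CPM and at -0.40 above.

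The scaling sets where no change lies, so the calls were also counted with libraries scaled to their total count alone, which moved the median of all genes by 0.16. With that scaling 74.3% of the called genes were higher, against 52.1% with TMM. In the class of at least 1000 CPM it left 53 genes lower and 26 higher, with a median of -0.24, so the fall of the most abundant genes held under both scalings. From 100 to 1000 CPM it gave 1032 genes higher and 517 lower, the reverse of the order with TMM, and a median of 0.12. Below 100 CPM higher genes led with TMM over the 9 libraries and more so with the total count. From 10 to 100 CPM, TMM in the fit of the 2 groups alone gave the other order, 2193 higher and 2350 lower. Under the total count, 74.5% of called genes were higher below 1 CPM, 72.5% from 1 to 10 CPM and 77.6% from 10 to 100 CPM. The medians of these classes under the total count were 0.32, 0.24 and 0.19, against 0.16, 0.075 and 0.024 with TMM. Small medians below 1000 CPM therefore rested on the scaling. The lower genes of the highest class also led with either group as the level that sets the class. Classed by the normoxia libraries alone, 13 genes of at least 1000 CPM were higher and 77 lower of 99, and classed by the H/R-DMSO libraries alone 19 were higher and 46 lower of 74.

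Percentages of the deposited counts need no such scaling. The 90 genes of at least 1000 CPM held 27.0%, 27.0% and 27.2% of the counts in the normoxia libraries and 22.9%, 23.1% and 22.9% in the H/R-DMSO libraries. The groups did not overlap, and the means were 27.1% ± 0.123 (SD, n = 3) and 23.0% ± 0.141 (exact permutation test, two-sided p = 0.1, the smallest that 3 against 3 libraries can give). Genes from 10 to 100 CPM went from 28.5% ± 0.0679 to 31.6% ± 0.0654 of the counts, and those from 100 to 1000 CPM from 42.8% ± 0.0551 to 43.5% ± 0.0671. Genes from 1 to 10 CPM went from 1.47% ± 0.00563 to 1.71% ± 0.0108 and those below 1 CPM from 0.102% ± 0.000346 to 0.124% ± 0.00121. In each of these classes every H/R-DMSO library lay above every normoxia library. Shares add up to 100%, so a loss in one class has to appear as a gain in others.

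**Figure D3:**
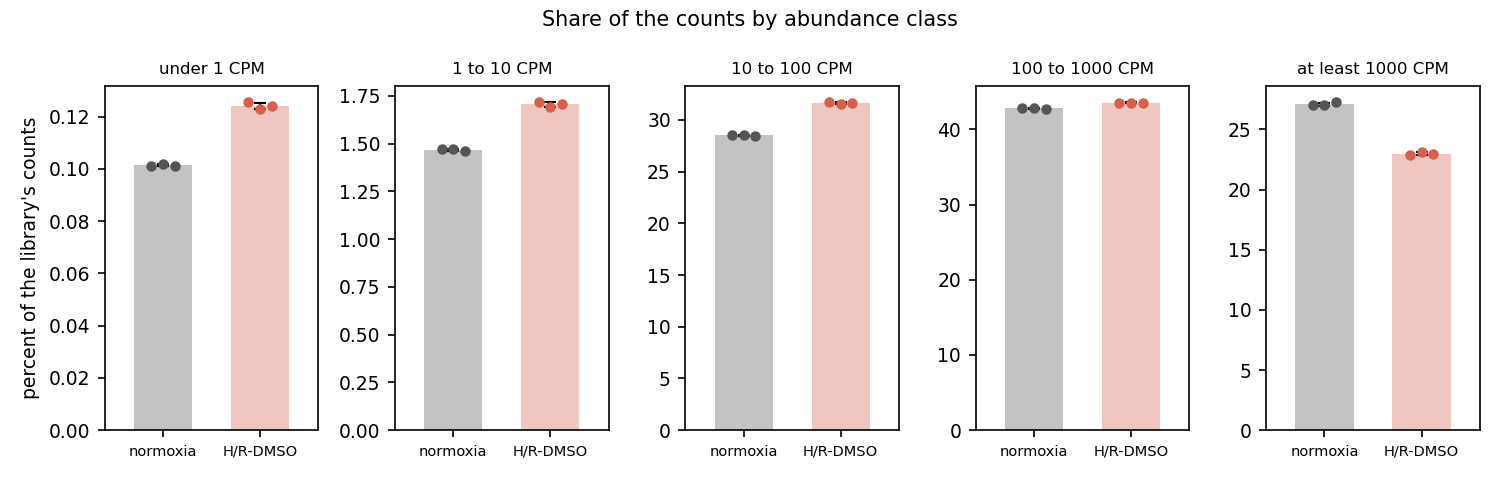
Percentage of a library's counts (y axis, from 0, with a scale of its own in each panel) held by each abundance class in normoxia and H/R-DMSO, with bars at the mean, error bars of 1 SD and 1 point per library. The class of at least 1000 CPM went from 27.1% to 23.0%, and the other 4 classes gained.

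The RNA pool was spread over more genes after H/R. In normoxia, 617 to 626 genes were enough to hold 50% of a library's counts, and after H/R it took 819 to 827. For 90% of the counts the numbers were 5517 to 5534 and 5869 to 5895. The 100 most abundant genes of each library held 28.2% ± 0.129 (SD, n = 3) in normoxia and 24.3% ± 0.128 after H/R. For the most abundant gene of each library the groups overlapped, with 2.06% to 2.11% of the counts in normoxia and 2.04% to 2.30% after H/R. Of the 100 most abundant genes by mean share, 81 were in the list of both groups, and of the 1000 most abundant 863.

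Few genes carried the loss and many carried the gain. Shares are relative, so a loss in a few abundant genes raises the share of every gene that did not change. The number of genes that gained and the wide spread of the gain therefore follow in part from how shares are built. How large that part is was not tested. Between the group means, 12.2% of the counts moved between genes. Of the 7171 genes with a lower share after H/R, the 47 with the largest losses held 50% of the loss, while 624 of the 14179 genes with a higher share were needed for 50% of the gain. The 10 largest losses made up 24.1% of all loss and the 10 largest gains 11.9% of all gain. Without H/R-DMSO replicate 1 these numbers of genes were 47 and 616. By class, genes of at least 1000 CPM accounted for 49.2% of the loss and 15.5% of the gain, and genes from 10 to 100 CPM for 14.2% and 39.8%.

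**Figure D4:**
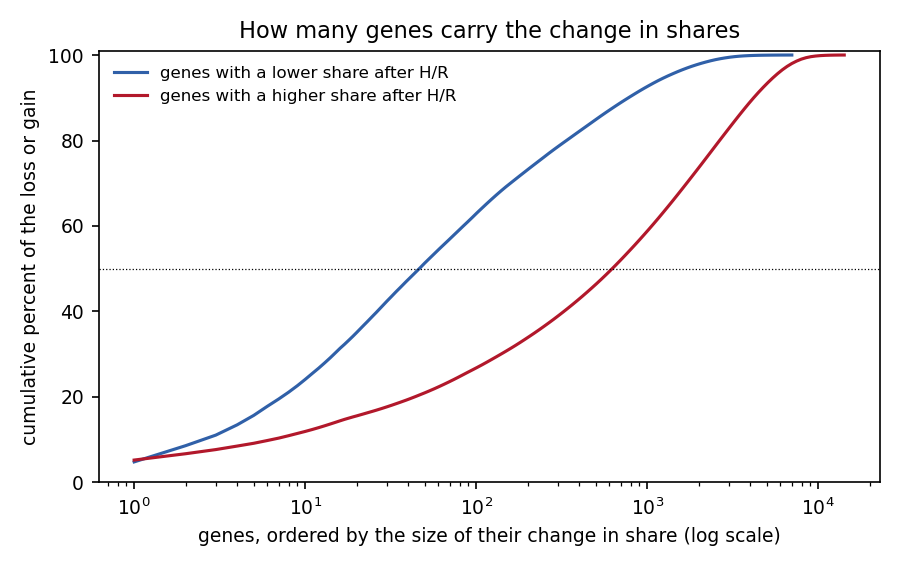
Cumulative percentage of the loss (blue) or gain (red) of count shares after H/R (y axis) against the number of genes, ordered from the largest change down (x axis, log scale), with a dotted line at 50%. The loss reaches 50% with 47 genes and the gain with 624. The wide spread of the gain follows in part from shares being relative.

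The abundant genes with the largest losses show the sizes involved. They are given by rank and without ID. The gene with the largest loss of counts stood at 11284, 11254 and 11542 CPM in normoxia and at 4380, 4669 and 4566 CPM after H/R. Its log2 fold change was -1.32 with a standard error of 0.031 (edgeR, adjusted p = 1.36e-32). The second largest loss belonged to a gene that went from 11220 ± 310 to 5592 ± 137 CPM (SD, n = 3). The third largest was steeper than both, from 3434, 3519 and 3568 CPM to 241, 259 and 262 CPM, or -3.79 on the log2 scale with a standard error of 0.038 (edgeR, adjusted p = 1.63e-45). In all of these the libraries of the 2 groups lay far apart. These genes, and the gains given next, were picked for the largest changes of share between the same libraries. The gap between the groups therefore follows in part from the choice.

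Among the gains a single gene stood out by size. It went from 7259, 7268 and 7092 CPM to 12201, 12715 and 12744 CPM, which was 0.80 higher on the log2 scale with a standard error of 0.028 (edgeR, adjusted p = 1.35e-26). Its share of the counts went from 0.674% to 1.31%, which was 5.24% of all gain. The next gain was 0.181 percentage points, by a gene that went from 967 ± 8.63 to 2592 ± 38.2 CPM (SD, n = 3).

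The 4 genes named by ID were the 2 steepest called changes per direction at a mean level of 5 CPM or more. Only genes whose groups did not overlap could enter. The size of these changes and the gap between the groups therefore follow from the choice. ENSRNOG00000019120 stood at 0.266, 0.175 and 0.254 CPM in normoxia, from 11, 9 and 9 counts, and at 10.4, 13.6 and 11.1 CPM after H/R. The groups lay far apart, by 5.67 on the log2 scale with a standard error of 0.21 (edgeR, adjusted p = 8.01e-26), on few counts in normoxia. ENSRNOG00000029911 rested on far more counts, 482 to 650 per normoxia library. It stood at 13.7, 12.6 and 13.6 CPM in normoxia and at 193, 213 and 207 CPM after H/R, which took it from rank 9006 to rank 746 of the genes tested by mean CPM (log2 fold change 3.94, standard error 0.053; edgeR, adjusted p = 3.88e-41).

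The 2 that fell came from the class of 10 to 100 CPM. ENSRNOG00000017766 stood at 97.0, 98.8 and 99.1 CPM in normoxia and at 2.75, 3.34 and 2.29 CPM after H/R, where it still had 103 to 120 counts per library. It went from rank 2100 to rank 12127, or by -5.16 on the log2 scale with a standard error of 0.081 (edgeR, adjusted p = 7.95e-39). ENSRNOG00000068340 stood at 18.9, 23.0 and 19.7 CPM in normoxia and at 0.882, 0.890 and 0.953 CPM after H/R, from 32 to 45 counts, with a log2 fold change of -4.49 and a standard error of 0.14 (edgeR, adjusted p = 4.13e-28). Both genes were still detected in every H/R-DMSO library.

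Just below the minimum of 5 CPM lay a gene with a mean of 4.97 CPM and a steeper rise than the 2 named ones. It had 0, 2 and 2 counts in the normoxia libraries and 410, 310 and 478 counts in the H/R-DMSO libraries, or 11.0, 8.62 and 10.1 CPM. With so few counts in normoxia a fold is not given.

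**Figure D5:**
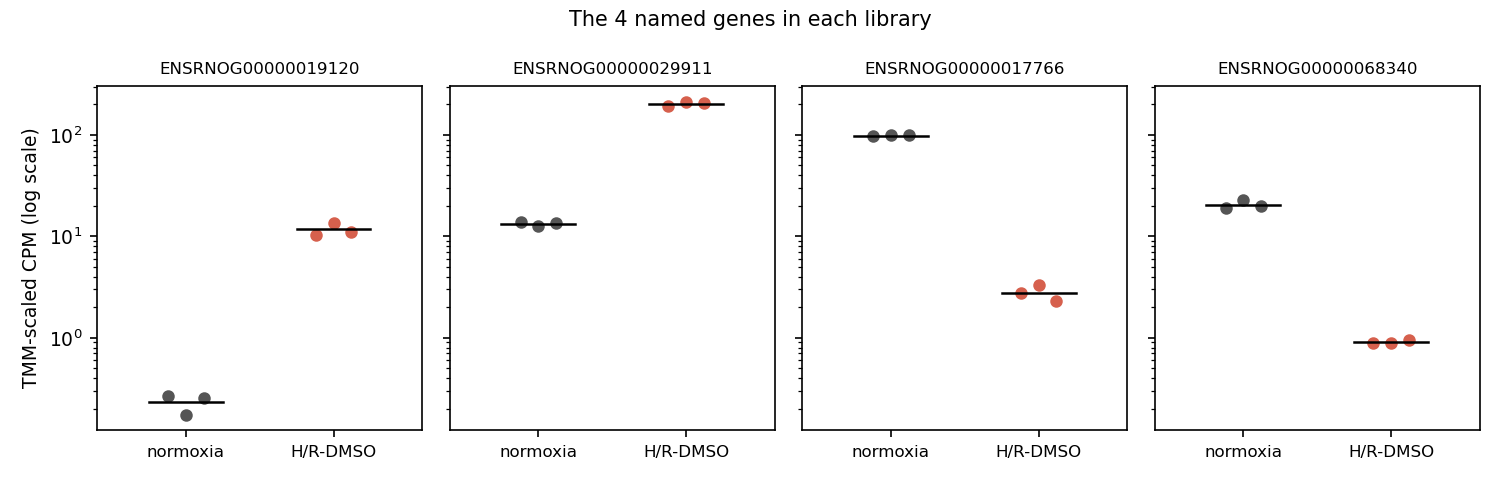
TMM-scaled CPM (y axis, log scale) of the 4 genes named by ID in each normoxia and H/R-DMSO library, 1 point per library, with the mean as a line. In each panel the 3 libraries of a group lie together. The groups do not overlap, which was a condition of the choice.

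Genes found in 1 group alone were all of very low count. A count in normoxia and none in the 3 H/R-DMSO libraries was seen for 975 genes, with at most 20 counts in a library, and the reverse for 1221 genes, with at most 28. With at least 3 counts in each library of the other group, 12 genes were at 0 in all normoxia libraries and 6 in all H/R-DMSO libraries. At these counts absence cannot be told from a low level, and 1 of the 12 genes and 0 of the 6 had enough counts to be tested. Thinned to the size of the smallest library, the normoxia libraries had 18342 ± 128 genes (SD, n = 3) with a count and the H/R-DMSO libraries 18618 ± 105, without overlap (exact permutation test, two-sided p = 0.1, the smallest possible). Before thinning they had 18517 ± 258 and 18681 ± 193, and the ranges overlapped.

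The spread between libraries was larger in H/R-DMSO than in normoxia among abundant genes, mostly through replicate 1. In the class of at least 1000 CPM the median SD of log2 CPM was 0.021 in normoxia and 0.050 in H/R-DMSO, and from 100 to 1000 CPM 0.031 and 0.052. Taken by pairs of libraries in the class of at least 1000 CPM, the median SD was 0.064 and 0.045 for H/R-DMSO replicate 1 with replicates 2 and 3 and 0.022 between those, beside 0.016 to 0.023 for the 3 normoxia pairs. From 100 to 1000 CPM these were 0.056, 0.046 and 0.027, beside 0.025 to 0.026. Below 1 CPM it was 0.21 in normoxia and 0.22 in H/R-DMSO. The median log2 fold change of -0.40 in the highest class was -0.39 without replicate 1, with 17 genes higher and 64 lower.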

How the data were processed

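RNA of 9 libraries was extracted with TRIzol and sequenced. The authors deposited a table of raw counts for every library, each with 30560 Ensembl gene IDs. The submitters' processing notes list Trimmomatic 0.39, STAR 2.7.3a, featureCounts 2.0.1, DESeq2 1.32.0 and build rn6. The sources used here give no annotation release, strand setting or handling of multi-mapped reads, so overlapping genes and near-identical copies can share counts.

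Analysis used R 4.3.3 and edgeR 4.0.16. filterByExpr at its defaults kept 15879 genes with 99.97% of the counts. After TMM scaling, all 9 libraries entered a quasi-likelihood fit with 1 coefficient for each of the 3 groups, with Benjamini-Hochberg adjustment over all genes tested at 0.05. Library medians used log2(CPM + 0.1) and spreads log2(CPM + 0.5). A standard error is the log2 fold change divided by the square root of F.

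The part compared and the rules were chosen with earlier results of these data known. The named IDs are the 2 largest changes per direction among called genes with separate groups and at least 5 CPM. 43 gene lists were written and could not be used, as 0 IDs matched the gene table (assembly GRCr8). Alternatives were RLE, upper-quartile and total-count scaling, other filters, DESeq2 1.42.0, limma-voom 3.58.1, the 2 groups alone, a replicate block, a 2-fold minimum and each library left out.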

Additional observations from a re-analysis of the deposited data

How the results depend on the processing

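Total-count scaling gave 7282 higher and 2515 lower genes. By class, that scaling gave 4374 higher and 1261 lower from 10 to 100 CPM, 1032 and 517 from 100 to 1000 CPM, where the median log2 fold change turned to 0.12, and 26 higher from 1000 CPM. In a fit of the 2 groups alone the median from 10 to 100 CPM was -0.0012, against 0.024. The minimum of 2-fold left 1402 genes, 711 higher and 691 lower, by its construction. Under the filter at a mean of 1 CPM, 438 genes were higher at least 2-fold against 711, and 30 higher and 3 lower remained in the class below 1 CPM, since most of that class was not tested. Classing genes by the H/R-DMSO level, chosen after seeing the data, gave 228 higher and 297 lower genes below 1 CPM, against 317 and 191, and a median of -0.20 in the highest class. All other counts of called genes, over all genes and per class, stayed within 1.5 times, apart from the class counts under the 2-fold minimum. The leading direction turned over all genes and from 10 to 100 CPM with RLE, DESeq2 and the 2 groups alone. For changes of at least 2-fold over all genes it also turned in these settings. There it turned as well under the filter at a mean of 1 CPM and without each H/R-DMSO replicate in turn. The 4 named genes kept direction and call in 64 of 64 values under alternatives.

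With each library left out, 7635 to 7928 genes were called, 3920 to 4056 higher and 3709 to 3878 lower, and 46 to 48 genes held 50% of the lost share, a measure added after seeing the data. The alternatives for gene lists were not run. The 3 same-numbered pairs of libraries gave correlations of deviations from the group means of 0.013, -0.033 and -0.00040. Pairs with unlike numbers lay between -0.057 and 0.061. With so few libraries per group these values cannot show whether the numbers pair the libraries. With the number as a replicate block 8539 genes were called, against 8364 without it. Depth limits the class below 1 CPM, where few changes under 2-fold could be called.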
